A study of Mus musculus with 13 samples.

Results

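The rows described here are the annotated pseudogenes with signal in mouse oocyte nuclei and cytoplasms. They are the rows whose symbol ends in -ps, or in -ps and digits, and whose deposited value was at least 1 in at least 1 of 4 columns. Of 120 such rows in a table of 23235, 56 met the rule and are called members below. The other 64 stayed below 1 throughout, and 46 of them were listed at 0 in all 4 columns. Because the values themselves chose the members, their levels and differences are given as descriptions, with no test.

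The table had 4 columns, the nuclei and the cytoplasms of wild-type (WT) oocytes and those of MTR4-null oocytes. The series has 13 Smart-seq2 libraries of polyadenylated RNA, each made from 10 oocyte nuclei or 10 cytoplasms parted by micromanipulation. Per the labels these were 2 WT nucleus and 2 WT cytoplasm libraries at day 14, 3 WT nucleus and 2 WT cytoplasm libraries at day 21, and 2 MTR4-null nucleus and 2 MTR4-null cytoplasm libraries at day 21. The labels name neither the allele nor the Cre line behind the null, and all libraries come from oocytes of mice. Which libraries entered each column is not given, and no column has a replicate, so no difference could be set against a spread, and a change in all 10 nuclei of a pool cannot be told apart from a larger change in some of them. The WT columns name no day, so genotype and age cannot be told apart in null against WT.

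MTR4 is the RNA helicase that threads nuclear transcripts into the exosome, the complex that degrades RNA from its 3' end. Its gene, listed under the older symbol Skiv2l2, had values of 13.3 in WT nuclei and 3.54 in null nuclei, and of 187 in WT and 4.36 in null cytoplasms. All 11 oocyte markers were at least 1 in every column. The 14 granulosa cell markers, genes of the somatic cells around the oocyte, summed to between 0.000785% (null nucleus) and 0.00773% (null cytoplasm) of a column's total. In WT nuclei 2 of the 14 were at 1 or more and 2 were listed at 0, in null nuclei 3 and 5, in WT cytoplasms 12 and 0, and in null cytoplasms 14 and 0. Their part in the results was not tested. Column totals ran from 594034 in WT nuclei to 6637345 in WT cytoplasms, so levels are compared between columns on a relative scale explained below.

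Pseudogenes are gene copies that were once thought, or are still thought, to make no working protein. A retrocopy (processed pseudogene) is a messenger RNA that was copied back into DNA and inserted elsewhere, usually without introns. A duplicated (unprocessed) pseudogene keeps the exons and introns of the gene it was copied from, and a unitary pseudogene is the disabled original gene itself. Polyadenylated transcripts of such loci are among the RNAs that cells can make and then degrade. Because a copy can be nearly identical to its parent gene, short reads of one can be counted for the other.

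GENCODE M21 (build GRCm38) gave 22 of the 56 members as unprocessed and 18 as processed pseudogenes, and 5 as unitary or polymorphic ones. Of the others, 7 were protein coding there, 2 antisense (Speer7-ps1 and Speer8-ps1), and 2 had no single entry (Hmga2-ps1 and Rplp2-ps1). Of the 18 processed members 16 had a single exon, against 2 of the 22 unprocessed ones. With the RefSeq annotation of the same build, 8 members were protein coding in at least 1 of the 2 annotations. Among them were B3gnt9-ps, Krt72-ps, Nutf2-ps1, Pisd-ps3, Rasl2-9-ps, Rpl34-ps1 and Znhit2-ps. For these 8 the -ps in the symbol differs from the class in at least 1 annotation.

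How far a member can be told from its parent is visible in the transcripts. Each stretch below is the first gapless run of 90 aligned bases inside the parent's coding sequence, 5' to 3', from GENCODE M21 transcripts. Capitals mark the bases at which member and parent differ. The first 4 were chosen because member and parent are identical over the run, so it is printed once for both. They are Apoo-ps at chr13:107414144-107414729 (minus strand), Nutf2-ps1 at chr19:53588168-53589068 (minus strand), Atp6v0c-ps2 at chr6:37806086-37806550 (plus strand) and Rpl34-ps1 at chr6:71124610-71124963 (plus strand), all GRCm38.
Apoo-ps and Apoo: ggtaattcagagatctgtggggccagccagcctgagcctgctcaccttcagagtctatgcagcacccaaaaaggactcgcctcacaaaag
Nutf2-ps1 and Nutf2: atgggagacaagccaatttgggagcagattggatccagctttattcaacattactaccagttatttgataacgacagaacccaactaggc
Atp6v0c-ps2 and Atp6v0c: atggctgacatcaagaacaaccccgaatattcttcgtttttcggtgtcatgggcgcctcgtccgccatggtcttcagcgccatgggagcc
Rpl34-ps1 and Rpl34: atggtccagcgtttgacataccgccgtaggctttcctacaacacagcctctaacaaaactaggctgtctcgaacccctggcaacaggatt
The next 2 pairs were chosen because the member has drifted from its parent. They are Kif4-ps at chr12:101145614-101149758 (plus strand) and Spn-ps at chr15:90891402-90899022 (minus strand).
Kif4-ps: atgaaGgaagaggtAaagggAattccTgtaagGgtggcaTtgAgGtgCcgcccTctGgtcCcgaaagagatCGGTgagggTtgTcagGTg
Kif4: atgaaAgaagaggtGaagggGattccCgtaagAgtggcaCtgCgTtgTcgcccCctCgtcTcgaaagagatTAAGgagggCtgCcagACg
Spn-ps: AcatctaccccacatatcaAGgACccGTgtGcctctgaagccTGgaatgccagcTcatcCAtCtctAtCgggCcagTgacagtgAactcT
Spn: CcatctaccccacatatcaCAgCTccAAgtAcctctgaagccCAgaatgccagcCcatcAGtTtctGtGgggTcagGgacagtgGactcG
Over these 90 bases Kif4-ps differed from its parent at 20 and Spn-ps at 20. Apoo-ps matched Apoo at 100% of 586 aligned bases and Nutf2-ps1 matched Nutf2 at 100% of 868. Atp6v0c-ps2 matched Atp6v0c at 99.8% of 465. Spn-ps matched Spn at 85.6% of 1104, and Kif4-ps matched Kif4 at 81.1% of 3645.

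To put this on 1 scale, the transcripts of each member were cut into all words of 25 bases, both strands taken as 1, and each word was looked up in the transcripts of 55450 GENCODE genes. For 53 members with a transcript, the share of words also held by another gene ran from 0.0% for Znhit2-ps to 100% for Apoo-ps, Marcksl1-ps4 and Rpl34-ps1. It was at most 10% for 14 members, over 10 to 50% for 18 and over 50% for 21. Marcksl1-ps4 lies inside Akr1c19 on the same strand, and all of its words are in Akr1c19 transcripts. Vmn2r-ps129, from the type 2 vomeronasal (pheromone) receptors, shared 95.4% of its words, chiefly with Vmn2r-ps130. The word it shared most widely was found in 57 other genes.
Vmn2r-ps129 word: gaaaatgaaatttctaatgagacaa
Zp4-ps shared 1.2% and Olfr856-ps1 1.9%, so nearly all of their transcript words were found in no other gene. In 7 members at least 1 word was held by more than 100 other genes. These were Adh6-ps1, Cyp2c53-ps, Gpr137b-ps, Olfr1372-ps1, Pdxk-ps, Ppp4r1l-ps and Speer5-ps1. The most widely held word was in 158 other genes for Cyp2c53-ps, 942 for Gpr137b-ps and 3293 for Speer5-ps1. What such words add to their values was not tested. How the authors assigned reads that fit several genes is not given in the sources used.

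**Figure D1:**
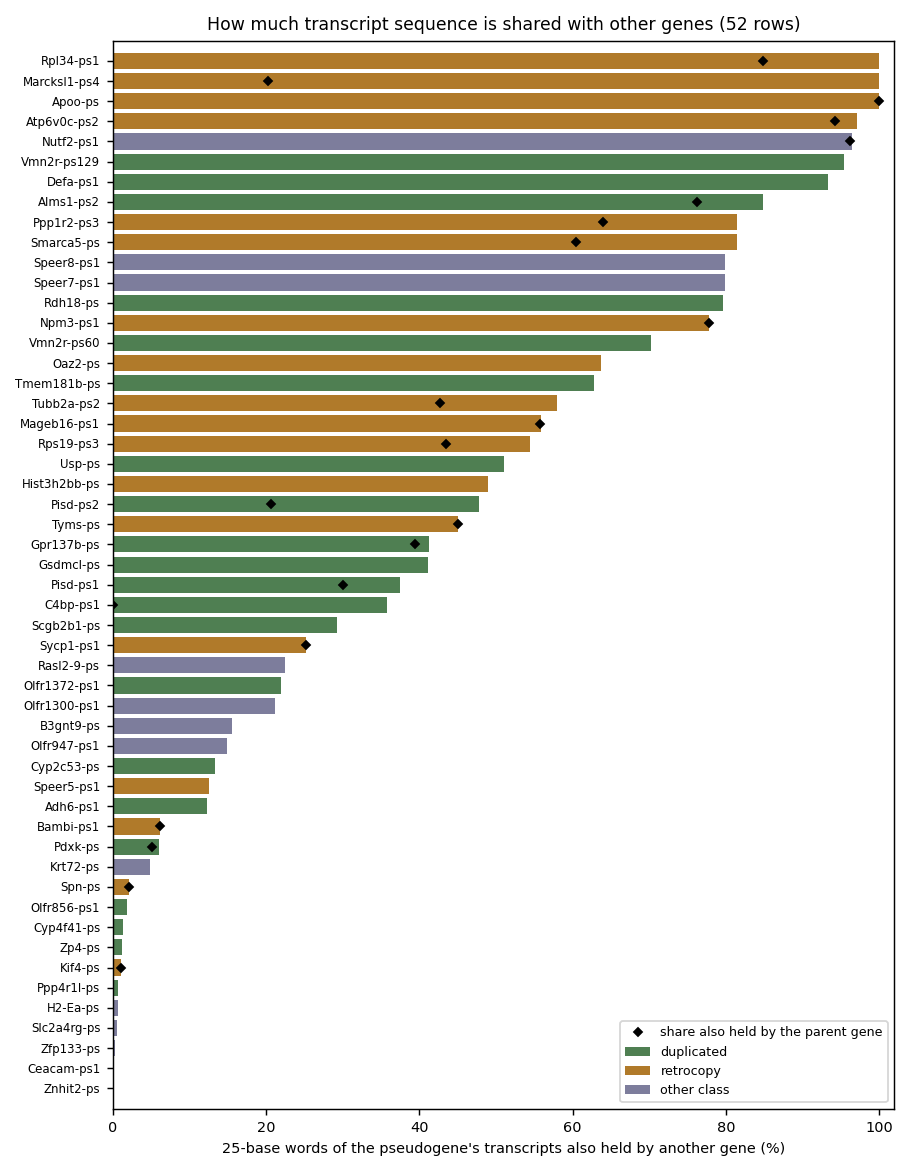
Bars give, for 52 members, the share (%) of 25-base words of their GENCODE transcripts that another gene also holds, coloured by GENCODE class, and diamonds the share held by the named parent gene. Members run from 0.0% (Znhit2-ps) to 100% (Rpl34-ps1, Marcksl1-ps4 and Apoo-ps), with Spn-ps at 2.1%.

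Most members were low and a few were very high. By their highest deposited value, 20 members lay between 1 and 5, 9 between 5 and 20, 13 between 20 and 100, 6 between 100 and 1000, and 8 at 1000 or above. In 24 members all 4 columns reached 1, in 15 only 3, in 8 only 2 and in 9 only 1. The highest value was in WT cytoplasms for 30 members, in null cytoplasms for 14 and in null nuclei for 12. These counts depend on the scale of the columns. As deposited, 85.7% of all rows were at least 2-fold lower in WT nuclei than in WT cytoplasms. Together the members made up 0.428% of the summed values of WT nuclei, 0.923% of null nuclei, 0.413% of WT cytoplasms and 0.484% of null cytoplasms. The top 5 members of each column held between 77.7% (null cytoplasm) and 88.4% (null nucleus) of that share.

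**Figure D2:**
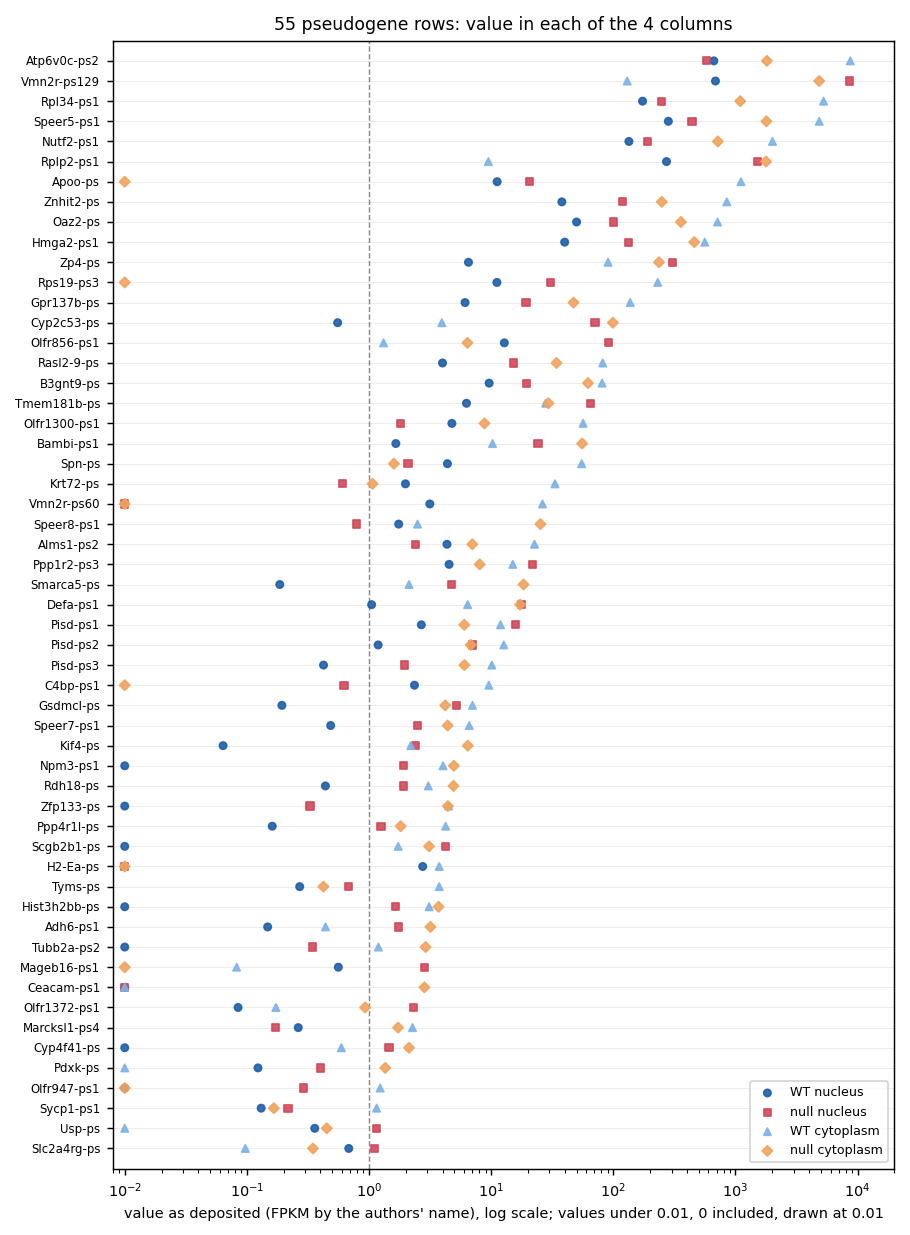
Each line is 1 of 55 members, and its 4 symbols give the deposited value in WT nucleus, null nucleus, WT cytoplasm and null cytoplasm on a log axis, with values under 0.01 and 0 drawn at 0.01 and a dashed line at 1. Atp6v0c-ps2 and Vmn2r-ps129 reach 8711 and 8545, and most members sit below 100.

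Vmn2r-ps129 was the highest member in 3 of the 4 columns. Its deposited values were 686 in WT nuclei, 8545 in null nuclei, 130 in WT cytoplasms and 4846 in null cytoplasms, so both null columns lay above both WT columns. No other of the 124 Vmn2r rows exceeded 28.2 in any column, and Vmn2r113, which shares 60.1% of the words, was at most 0.414. The closest copy, Vmn2r-ps130, holds 92.0% of the words and has no row under that symbol. Which of these loci gave the signal was not tested. Atp6v0c-ps2 is a single-exon copy of the gene for a membrane subunit of the proton pump of lysosomes and vesicles. It had 665 in WT nuclei, 579.5 in null nuclei, 8711 in WT cytoplasms and 1810.1 in null cytoplasms. On the relative scale explained below, nuclei and cytoplasms of WT were nearly level for it, with a difference of -0.11 (log2). Speer5-ps1 is named after a family known from the testis, but its closest genes by shared words (Gm18669, Ccdc137 and AC160336.1) carry no Speer symbol. It stood at 282 in WT nuclei, 441 in null nuclei, 4851 in WT cytoplasms and 1790.4 in null cytoplasms, while no other Speer row exceeded 44.1.

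Of the -ps rows named after ribosomal proteins 3 of 3 reached the threshold, as did 98 of 98 ribosomal protein rows without the ending. Rpl34-ps1 had 174 in WT nuclei, 248 in null nuclei, 5259.6 in WT cytoplasms and 1095 in null cytoplasms, a profile that peaks in WT cytoplasms. Rplp2-ps1, named after an acidic protein of the ribosomal stalk, had 273 in WT nuclei, 1521 in null nuclei, 9.49 in WT cytoplasms and 1779 in null cytoplasms. Here the WT cytoplasm was the lowest column, the reverse of Rpl34-ps1. Rps19-ps3 had 11.1 in WT nuclei, 30.4 in null nuclei and 231 in WT cytoplasms, and was listed at 0 in null cytoplasms. Apoo-ps, a copy of a gene for a mitochondrial inner membrane protein, had the same shape, with 11.2, 20.6 and 1110 in those columns and 4.13e-32 in null cytoplasms. The parent Apoo, which holds 100% of the words of Apoo-ps, had 1632 in WT cytoplasms and 565 in null cytoplasms. The part of read assignment in the profile of Apoo-ps was not tested. No fold is given against a value at or near 0.

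Other abundant members followed the order of the column totals, lowest in WT nuclei and highest in WT cytoplasms. Nutf2-ps1, a copy of a carrier that brings the GTPase Ran into the nucleus, had 134 in WT nuclei, 190.3 in null nuclei, 2009 in WT cytoplasms and 717 in null cytoplasms. Znhit2-ps had 37.9, 118, 849 and 249 in the same order of columns. Oaz2-ps, named after an inhibitor of polyamine synthesis, had 50.04, 100.3, 713 and 357. Hmga2-ps1, named after an architectural chromatin protein, had 39.96, 133, 560.4 and 460.03.

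Olfactory and vomeronasal receptor pseudogenes were the largest named group among all -ps rows, and the one least often detected. Of 32 such rows 6 reached 1 (18.8%), against 156 of 1469 receptor rows without the ending (10.6%). Across all families 46.7% of -ps rows reached 1, against 69.6% of other rows. Drug, lipid and steroid metabolism gave 3 members of 8 rows, immune genes 2 of 8, and chromatin and nuclear RNA binding 3 of 3. Of the rows without the ending in these families, 53.5%, 54.7% and 88.1% reached 1, in the same order. The smallest maxima just inside the threshold were 1.11 (Slc2a4rg-ps), 1.15 (Usp-ps) and 1.15 (Sycp1-ps1). Just outside it were Cdk3-ps at 0.824, Mug-ps1 at 0.756 and Nlrp1c-ps at 0.599.

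To compare columns, the median ratio of each column to the geometric mean of all 4 was taken as its divisor, 1 was added to the quotients, and the log2 values were subtracted. This relative difference sets a row against the median row and says nothing of total RNA. A row is called higher or lower when it differs at least 2-fold on that scale. The divisors were 0.281 for WT nuclei, 0.604 for null nuclei, 3.41 for WT cytoplasms and 1.84 for null cytoplasms. Without them the median of all 16153 rows with a value of at least 1 differed by 0.79 (log2) for null against WT nuclei and by -0.76 for null against WT cytoplasms. For nucleus against cytoplasm it was -3.09 in WT and -1.38 in null. Both plots of differences use the relative scale.

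In nuclei, 20 of the 56 members were relatively higher in null than in WT and 9 were lower. Of all 16153 rows, 24.3% were called higher and 16.3% lower. The median relative difference was 0.63 (log2) over the members and 0.0 over all rows. On the deposited scale 30 members were higher and 4 lower, beside 42.0% and 3.59% of all rows. With at least 1 asked of a WT column, 17 of 48 members were relatively higher and 9 lower, beside 3279 and 2608 of 14826 rows. Since each column is 1 value and the members were picked by their values, these shares are set side by side and not tested.

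Cyp2c53-ps, from the cytochrome P450 family that oxidises drugs and steroids, had the largest nuclear difference. Its deposited values were 0.553 in WT nuclei, 70.7 in null nuclei, 3.95 in WT cytoplasms and 99.2 in null cytoplasms. Both null columns lay above both WT columns, and the relative differences were 5.31 in nuclei and 4.67 in cytoplasms. Cyp2c29, which overlaps it on the same strand and shares 11.2% of its words, had 1.27, 5.07, 10.1 and 10.7, with differences of 0.76 and 0.78. Among the 15 other Cyp2c rows no value exceeded 10.7.

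Zp4-ps is the mouse remnant of a gene for an egg coat protein that many other mammals retain. It had 6.52 in WT nuclei, 306 in null nuclei, 90.5 in WT cytoplasms and 236 in null cytoplasms. Null nuclei were the highest column, and the relative difference was 4.39 in nuclei and 2.23 in cytoplasms. The intact egg coat genes Zp1, Zp2 and Zp3 stood above it in every column. In WT and null nuclei Zp1 had 639 and 1037, Zp2 had 1080 and 4868, and Zp3 had 2125 and 4487. In WT and null cytoplasms Zp1 had 15155 and 3025, Zp2 had 18301 and 10538, and Zp3 had 42059 and 15931.

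The further named members of the nuclear comparison were Defa-ps1, Bambi-ps1, Vmn2r-ps129 and Gsdmcl-ps. Defa-ps1, from the alpha-defensins (antimicrobial peptides of the gut), had 1.05 in WT nuclei and 17.7 in null nuclei, a relative difference of 2.68. Bambi-ps1, named after a decoy receptor of BMP and activin signals, had 1.66 and 24.2, a difference of 2.57. For Vmn2r-ps129 the difference was 2.54. Gsdmcl-ps, from the gasdermin family of pore-forming proteins, had 0.193 and 5.21, a difference of 2.51. Its relative Gsdmcl1, which holds 25.8% of its words, had 0.0312 in WT and 5.75 in null nuclei. In cytoplasms the pair differed. Gsdmcl1 had 0.933 in WT and 14.6 in null, a relative difference of 2.81, and Gsdmcl-ps had 7.03 and 4.20, a difference of 0.1. The part of read assignment was not tested. Among members with at least 5 in a nuclear column, Atp6v0c-ps2 had the lowest relative difference, -1.30, and -0.20 as deposited. The other 8 called lower stayed below 5 there. Of these, Vmn2r-ps60 and H2-Ea-ps were listed at 0 in null nuclei, and the remaining 6 ran from -1.65 (Speer8-ps1) to -2.21 (C4bp-ps1).

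In cytoplasms, 12 members were relatively higher in null and 10 lower, beside 22.7% and 18.5% of all rows, and the members' median was 0.16. These counts are near the background in both directions. On the deposited scale 13 members were higher and 19 lower, beside 15.9% and 43.4% of all rows. Rplp2-ps1 had the largest relative difference, 8.0, followed by Vmn2r-ps129 with 6.07 and Cyp2c53-ps with 4.67. Speer8-ps1 had 2.50 in WT and 25.3 in null cytoplasms, a relative difference of 3.09. Bambi-ps1 had 10.2 and 55.5, a difference of 2.96. Smarca5-ps, a copy of a nucleosome-sliding ATPase gene, had 2.12 and 18.4, a difference of 2.76. It shares 81.4% of its words with other genes.

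At the other end of the cytoplasm comparison stood Apoo-ps and Rps19-ps3, whose values are given above, and 4 lower members. Spn-ps, named after the leukocyte surface protein CD43, had 55.1 in WT and 1.60 in null cytoplasms, a relative difference of -3.20. Vmn2r-ps60 had 26.3 in WT cytoplasms and was listed at 0 in null cytoplasms. C4bp-ps1, named after a complement regulator, had 9.56 and was listed at 0 in null cytoplasms as well. Krt72-ps, now annotated as the keratin gene Krt72, had 33.3 and 1.07, a difference of -2.77. Its family member Krt73 had 93.2 and 6.70 there, with a difference of -2.61.

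Across the compartments, 10 members were relatively higher in null in both nucleus and cytoplasm, beside 14.5% of all rows. These were Adh6-ps1, Bambi-ps1, Cyp2c53-ps, Defa-ps1, Kif4-ps, Olfr856-ps1, Rplp2-ps1, Smarca5-ps, Vmn2r-ps129 and Zp4-ps, and all 10 were also at least 2-fold higher as deposited. Lower in both were 7 members, beside 8.24% of all rows, namely Atp6v0c-ps2, C4bp-ps1, H2-Ea-ps, Krt72-ps, Olfr1300-ps1, Spn-ps and Vmn2r-ps60. All 7 were also lower as deposited, though in nuclei Atp6v0c-ps2 (-0.20), Krt72-ps (-0.89) and Spn-ps (-0.80) then differed by less than 2-fold. Another 23 members were within 2-fold in both compartments, as were 41.9% of all rows. Speer8-ps1 alone was called in opposite directions.

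**Figure D3:**
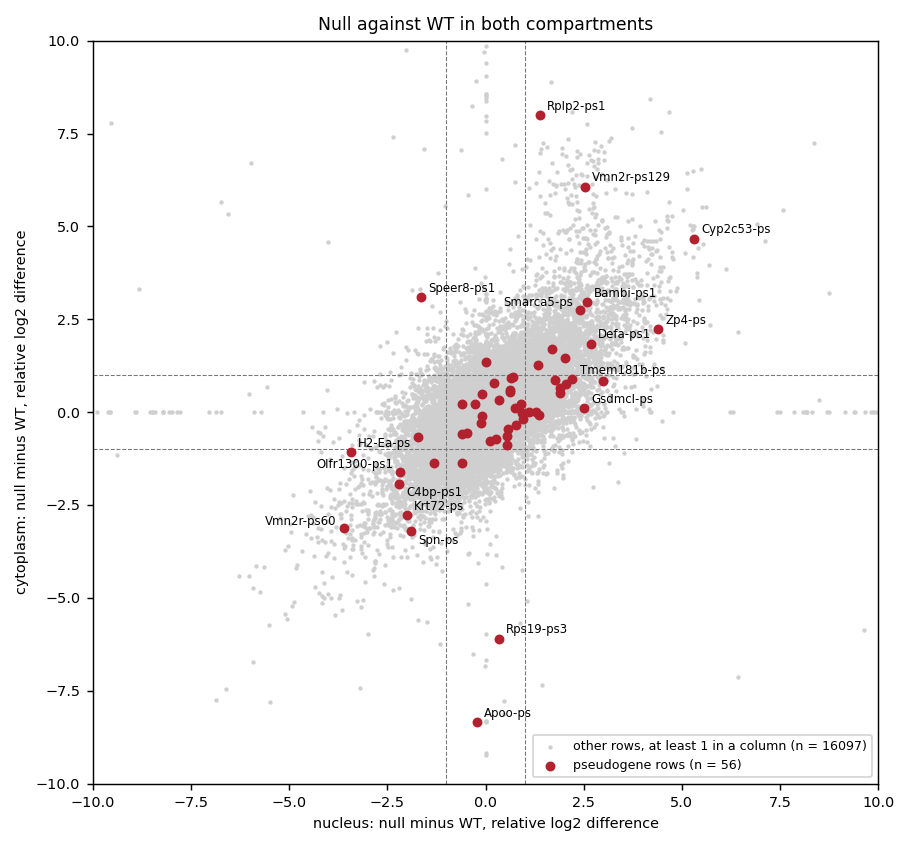
The relative log2 difference of null minus WT is plotted for nuclei (x axis) against cytoplasms (y axis), with the 56 members in red, 16097 other rows in grey and dashed lines at 2-fold. Vmn2r-ps129, Cyp2c53-ps and Zp4-ps sit to the upper right and Apoo-ps and Rps19-ps3 at the bottom, while 43 grey rows lie outside the axes, and rows listed at 0 are drawn from the added 1.

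The median member was lower than the median row (1.70 against 3.52 in WT nuclei), and the share of rows past 2-fold differs with level, so the nuclear count was also read within bands of the mean rescaled value. Of 28 members with a mean below 5, 32.1% were higher in null nuclei, beside 26.7% of all rows in that band. From 5 to below 50 it was 50% of 16 members, beside 30.4% of rows. At 50 and above it was 25% of 12 members, beside 13.9% of rows. In cytoplasms the shares were 14.3%, 31.2% and 25% of members, beside 21.8%, 30.1% and 13.7% of rows. The nuclear counts behind these shares, 9, 8 and 3 members, are small in every band, and their distance from the rows around them was not tested.

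By class, beside the shares of all rows given above (24.3% higher and 16.3% lower in nuclei, 22.7% and 18.5% in cytoplasms), 13 of the 22 unprocessed members were higher in null nuclei and 3 lower, with a median of 1.35. Of the 13, Adh6-ps1, Cyp4f41-ps and Olfr1372-ps1 reached 1 only in null columns. They thus passed the rule through the group in which they were high. Among the 18 processed members 6 were higher and 2 lower, with a median of 0.23, nearer to the shares of all rows. In cytoplasms 7 unprocessed members were higher and 2 lower, against 3 and 5 of the processed ones. None of the 7 members that GENCODE calls protein coding was higher in either compartment, and 1 (Krt72-ps) was lower in both. By shared sequence, 5 of the 14 members with at most 10% shared words were higher in null nuclei and 3 lower. Of the 18 in the middle band 8 were higher and 2 lower, and of the 21 above 50% 6 were higher and 4 lower. These small counts were not tested. Kif4-ps, with 1.1% of its words in Kif4, the gene of a chromosome-bound kinesin, had 0.0638 in WT and 2.40 in null nuclei, while Kif4 had 46.9 and 90.4, relative differences of 2.02 and -0.16.

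Between compartments, the relative scale sets a member's difference beside that of the median row. In WT, 13 members were relatively higher in nuclei and 4 lower, beside 9.45% and 7.75% of all rows. In null, 20 were higher in nuclei and 3 lower, beside 12.3% and 9.29%. The members' median was -0.02 in WT and 0.41 in null. On the deposited scale 3 members were higher and 42 lower in WT (1.86% and 85.7% of all rows), and 7 higher and 24 lower in null (3.62% and 66.1%). There 7 of the 13 members relatively higher in WT nuclei turned direction, namely Alms1-ps2, C4bp-ps1, H2-Ea-ps, Pisd-ps1, Ppp1r2-ps3, Speer8-ps1 and Tmem181b-ps, and in null 2 of the 20, Cyp2c53-ps and Rplp2-ps1. In the WT comparison the 3 still at least 2-fold higher as deposited were Rplp2-ps1, Vmn2r-ps129 and Olfr856-ps1. Each of the 4 columns enters both a genotype comparison and a compartment comparison, so those results are not independent of each other.

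Olfr856-ps1, an olfactory receptor pseudogene, was relatively higher in nuclei in both genotypes. It had 12.8 in WT nuclei against 1.31 in WT cytoplasms, and 90.8 in null nuclei against 6.39 in null cytoplasms. The relative differences, 5.07 and 5.08, were nearly the same, while both null columns were above their WT counterparts. Rplp2-ps1 differed by 8.0 in WT and 1.38 in null (-0.23 as deposited), and Vmn2r-ps129 by 5.96 and 2.43. Ppp1r2-ps3, a copy of a protein phosphatase inhibitor gene, differed by 1.66 and 2.79, and Tmem181b-ps by 1.34 and 2.67. As deposited, both were lower in WT nuclei than in WT cytoplasms (-1.54 and -1.99) and higher in null nuclei (1.33 and 1.11). C4bp-ps1 likewise turned from 1.30 to -1.66 in WT.

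Pisd-ps1, named after the enzyme that makes phosphatidylethanolamine in mitochondria, had 2.68 in WT nuclei, 15.8 in null nuclei, 11.9 in WT cytoplasms and 6.02 in null cytoplasms. Nucleus against cytoplasm it differed by 1.23 in WT and 2.66 in null on the relative scale, and by -1.81 and 1.25 as deposited. Speer8-ps1 differed by 2.06 in WT (-0.35 as deposited) and by -2.68 in null. At the low end in WT, among members with at least 5 in a compared column, were Apoo-ps (-3.0) and Rpl34-ps1 (-1.32), with Znhit2-ps, Gpr137b-ps and Gsdmcl-ps between -0.88 and -0.86. The other 2 called lower in WT, Zfp133-ps and Npm3-ps1, stayed below 5 and were listed at 0 in WT nuclei. In null, among members with at least 5 in a compared column, the low end after Speer8-ps1 was Olfr1300-ps1, Rpl34-ps1, Speer5-ps1, Smarca5-ps and Nutf2-ps1, all within 2-fold, between -0.54 and -0.31. The other 2 members called lower in null, Ceacam-ps1 and Zfp133-ps, stayed below 5, with 0 and 0.329 in null nuclei.

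**Figure D4:**
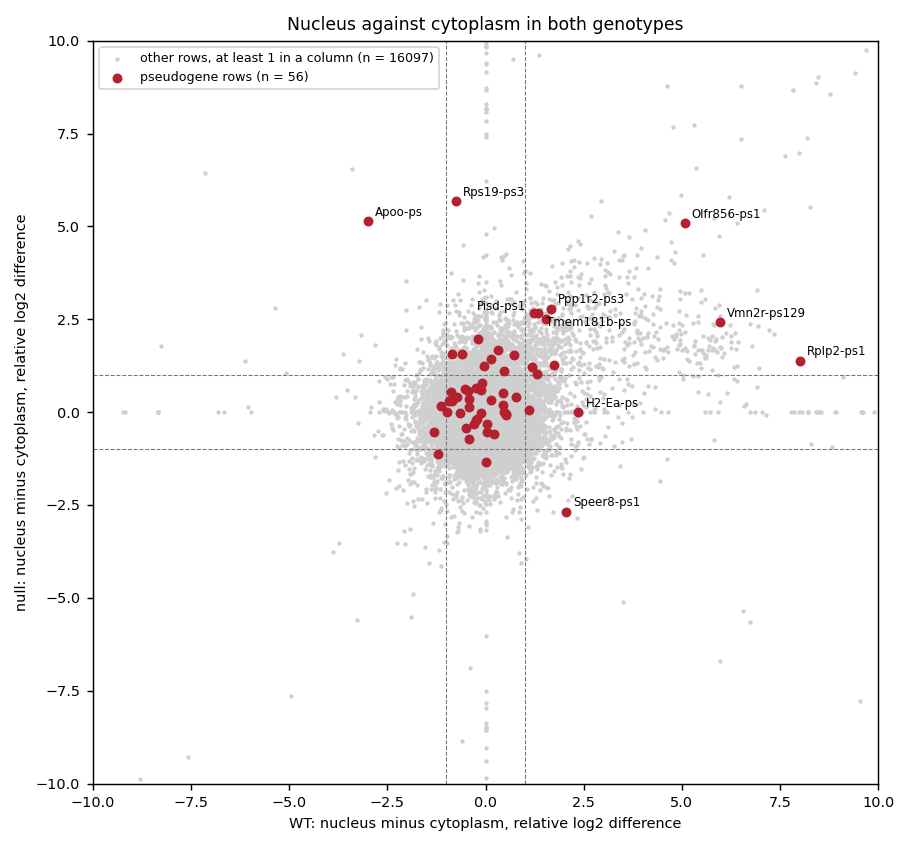
The relative log2 difference of nucleus minus cytoplasm is plotted for WT (x axis) against null (y axis), with the 56 members in red, 16097 other rows in grey and dashed lines at 2-fold, and 60 grey rows lie outside the axes. Olfr856-ps1 is near 5 on both axes, Rplp2-ps1 and Vmn2r-ps129 are far right, and Apoo-ps and Rps19-ps3 are high in null because their null cytoplasm value is at or near 0.

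A ratio of member to parent within 1 column does not depend on the column's scale. The symbol named a parent with a row for 26 members (24 different parents), and 30 had none. Among pairs with both rows at 1 or more, the member lay above its parent in 5 of 11 pairs in WT nuclei, 8 of 19 in null nuclei, 7 of 22 in WT cytoplasms and 6 of 19 in null cytoplasms. In all, 10 members were above their parent in at least 1 column, and 6 of them in every column where the pair could be compared. Values are per length by the authors' unit name, but how length was corrected is not given. Ratios of pairs of unlike length are therefore descriptions only.

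Several members lay far above their parent. Nutf2 had 0.741 in WT nuclei, 6.0 in null nuclei, 20.2 in WT cytoplasms and 14.5 in null cytoplasms, and the ratio of Nutf2-ps1 to it was 31.7 in null nuclei, 99.6 in WT cytoplasms and 49.5 in null cytoplasms. For this pair 96.2% of the member's words are shared, so reads of both loci can hardly be told apart. Atp6v0c had 26.02 in WT nuclei, 41.3 in null nuclei, 1434 in WT cytoplasms and 54.1 in null cytoplasms, giving ratios for Atp6v0c-ps2 of 25.6, 14, 6.08 and 33.5, with 94.3% of words shared. The same limit on telling the loci apart applies to this pair.

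Hmga2-ps1 exceeded Hmga2 by 7.14 times in WT nuclei, 3.78 in null nuclei, 11.8 in WT cytoplasms and 5.01 in null cytoplasms. Neither Hmga2-ps1 nor Rplp2-ps1 had a GENCODE transcript here, so the sequence they share with their parents was not measured. Bambi-ps1 exceeded Bambi by 13.1 times in null nuclei, 3.94 in WT cytoplasms and 7.93 in null cytoplasms, with 6.2% of words shared. Gpr137b-ps, named after a lysosomal membrane protein, exceeded its parent by between 1.40 and 1.98 times in all 4 columns. For 4 further members the order changed between columns. Rpl34-ps1 was 10.7 times Rpl34 in WT cytoplasms and 0.438 to 0.659 times elsewhere. Rplp2-ps1 was 2.09 times Rplp2 in null nuclei, 0.836 and 0.798 times in WT nuclei and null cytoplasms, and 0.00201 times in WT cytoplasms. Ppp1r2-ps3 lay above Ppp1r2 in both nuclear columns (1.88 and 1.99 times) and below it in both cytoplasm columns (0.478 and 0.105 times). Alms1-ps2, a partial duplicate of a centrosomal protein gene, was 1.24 times Alms1 in WT nuclei and 0.627 to 0.750 times elsewhere. Ppp1r2-ps3 shares 64.0% of its words with its parent and Alms1-ps2 76.3%, and the part of read assignment was not tested.

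**Figure D5:**
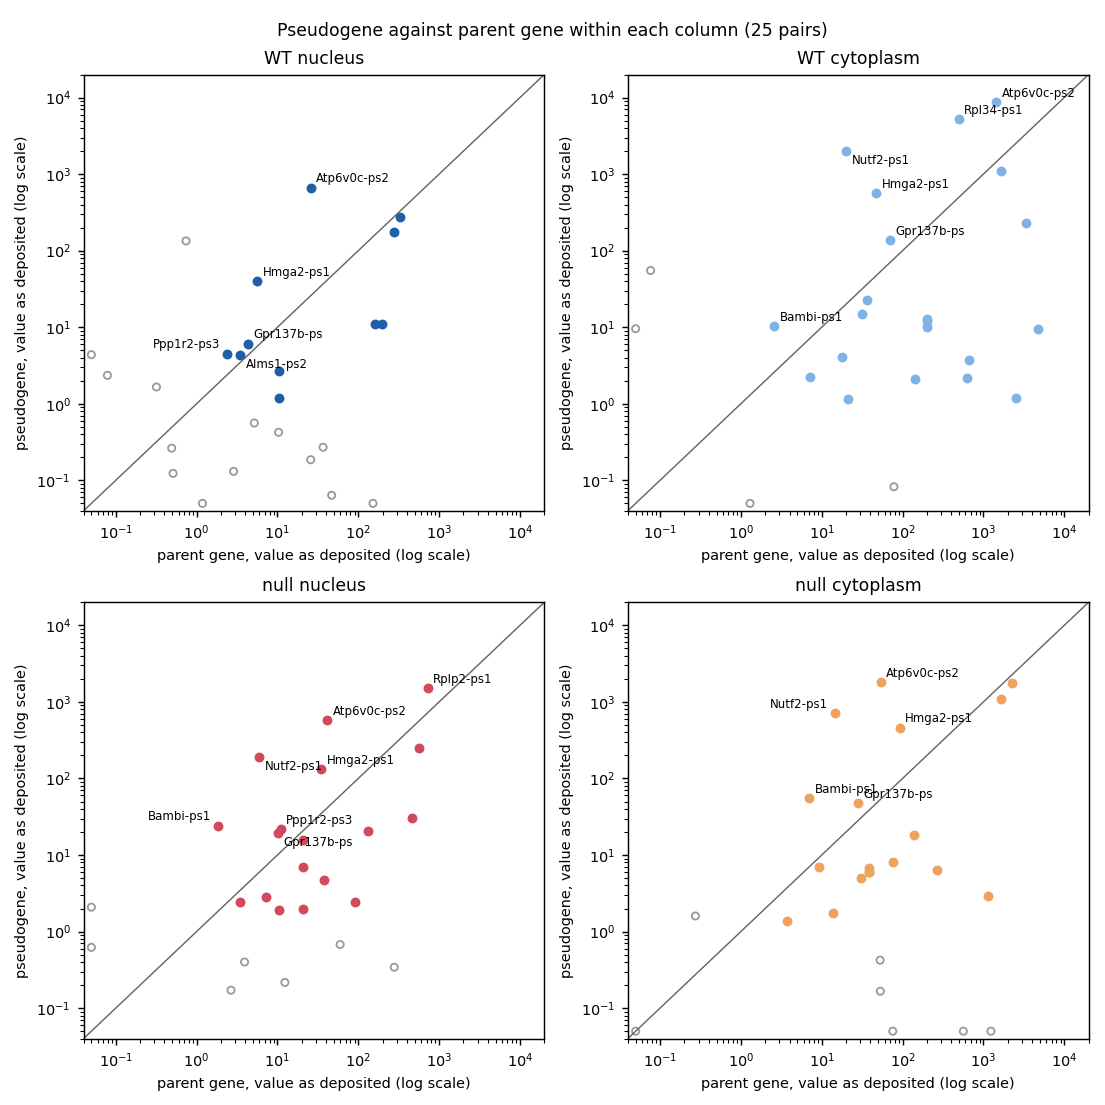
In 4 panels, 1 per column, the deposited value of each member (y axis, log scale) is plotted against its parent gene (x axis, log scale) with the line of equality. Filled points are pairs with both at least 1, open points the other pairs, with values under 0.05 drawn at 0.05, and labelled points lie above the line, Nutf2-ps1 in WT cytoplasms at 2009 against 20.2. It shows 25 of the pairs.

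In most of the other pairs the parent lay above its copy. Tubb2a, a tubulin gene, had 2528 in WT cytoplasms, where Tubb2a-ps2 had 1.19, a ratio of 0.000472. Tyms, of thymidylate synthesis, had 657 against 3.76 for Tyms-ps, and Kif4 had 633 against 2.2 for Kif4-ps. Tubb2a-ps2 shares 42.7% of its words with Tubb2a and Tyms-ps 45.1% with Tyms. Spn-ps lay above Spn in every column, but Spn never reached 1 and the pair was not counted.

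The change of this ratio between genotypes was measurable for 11 pairs in nuclei and 18 in cytoplasms. In nuclei 4 ratios were at least 2-fold higher in null (Apoo-ps, Pisd-ps1, Pisd-ps2 and Rplp2-ps1) and 0 were lower, with a median change of 0.22 (log2). In cytoplasms 9 were higher and 6 lower, with a median of 0.63. With 1 column per group this has no replicate check. For Apoo-ps, 100% of the words are also in Apoo, so reads of the pair cannot be told apart by these transcripts. Apoo had 163 in WT nuclei and 132 in null nuclei, and the part of read assignment was not tested. Pisd-ps1 and Pisd-ps2 share the parent Pisd and 1 of them cannot count as a replicate of the other. Their nuclear changes were 1.54 and 1.55, from ratios of 0.259 and 0.115 in WT to 0.751 and 0.336 in null, while Pisd had a relative difference of -0.08. In cytoplasms the changes were 1.40 and 1.49, and 1.64 for Pisd-ps3, beside -1.46 for Pisd itself.

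In cytoplasms Rplp2-ps1 had the largest change of ratio, 8.63, with Rplp2 itself at 4716 in WT and 2229 in null. The sequence shared by Rplp2-ps1 and Rplp2 was not measured. Rpl34-ps1 had the lowest, -4.02, with Rpl34 at 493 in WT and 1662 in null, so the member and its parent moved in opposite directions on the relative scale (-1.37 and 2.63). The pair shares 84.8% of the member's words, and the part that read assignment plays in this was not tested. Smarca5-ps changed by 3.14 against Smarca5, from a ratio of 0.0149 to 0.131, and Kif4-ps by 2.81 against Kif4. Smarca5-ps shares 60.4% of its words with Smarca5, and read assignment was not tested for that pair either.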

How the data were processed

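The data were 1 table of 4 columns, from a series of 13 Smart-seq2 libraries of mouse oocyte nuclei and cytoplasms; which of them entered each column is not stated. The authors deposited it as FPKM by name, but the column totals differ more than 10-fold, so the deposited values were treated as a score on no known common scale. Tools and build, per the submitters' processing notes, were TopHat2 2.1.1, Cufflinks 2.2.1 and mm9, and their roles are not stated. Averaging of libraries, depth in reads, strand and multi-mapping settings are not given in the sources used here. The members and lists were chosen with earlier results of these data known. The divisor of a column was the median of its ratios to the geometric mean over 4 columns (14273 rows above 0 in all), 1 was added, and log2 differences of at least 2-fold were called. No test was possible with 1 column per group. Named members were the 6 highest and 6 lowest per comparison among those with at least 5 in a compared column, the 5 highest per column, all members above their parent, and 3 rows on either side of the threshold; others named were chosen after their values were seen. Counts cover all members, and 1 member is not reported here by name. The parent is the row whose symbol lacks the -ps ending. All 56 members matched RefSeq GRCm38.p6 symbols or synonyms and 54 a GENCODE M21 gene. Their coordinates are GRCm38 and were not carried to mm9. Transcripts were aligned with biopython 1.88 (local, match 2, mismatch -3). The counting step was checked on simulated data. Python 3.11.15, pandas 2.3.3 and numpy 2.4.6 were used.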

Additional observations from a re-analysis of the deposited data

Results flagged for a closer look

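Speer8-ps1 differed between the compartments in the direction of null against WT. Its deposited values were 1.75 in WT nuclei, 0.785 in null nuclei, 2.50 in WT cytoplasms and 25.3 in null cytoplasms. The relative difference of null minus WT was -1.65 (log2) in nuclei and 3.09 in cytoplasms, so that the nuclear difference minus the cytoplasmic one was -4.74. Each side rests on 1 column per genotype, and the difference was not tested. The transcript shares 79.9% of its 25-base words with other genes and is antisense in GENCODE.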

How the results depend on the processing

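No paired analysis was possible because no column is labelled as 1 library, and for the same reason no replicate could be left out. As deposited, 4 members were lower in null nuclei, 19 lower in null cytoplasms, 3 higher and 42 lower in nuclei against cytoplasms of WT, and 7 higher and 24 lower in those of null. Ppp1r2-ps3 (-1.54), Tmem181b-ps (-1.99) and C4bp-ps1 (-1.66) turned direction there for nucleus against cytoplasm in WT, as did Alms1-ps2 (-2.14), H2-Ea-ps (-0.34), Pisd-ps1 (-1.81) and Speer8-ps1 (-0.35), and in null Cyp2c53-ps (-0.48) and Rplp2-ps1 (-0.23). With a pseudocount of 5, 12 members were higher in null nuclei, 6 higher and 2 lower in WT nuclei against cytoplasms, and 11 higher and 1 lower in null. With a pseudocount of 0.1, 22 were higher in null cytoplasms, 11 lower in WT nuclei against cytoplasms and 5 in null. Quantile normalization gave 8 lower in WT nuclei against cytoplasms. The 3 other filters on low values left all 8 counts within 1.5 times. For parents, every pair with a pseudocount of 1 gave 10 members above the parent in WT nuclei, 8 nuclear ratios higher and 7 lower in null, and 10 cytoplasmic ratios lower. Pairs with both rows at least 5 gave 2 above the parent in WT nuclei, and 2 nuclear and 5 cytoplasmic ratios higher in null. The alternative itself changes which pairs enter. Depth per row is unknown, so low values carry no interval.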
